A study of Homo sapiens with 6 samples.

Results

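The genes described here handle iron and haem, and were measured in THP-1, a line grown from a human monocytic leukaemia. They are FTH1, FTL, HMOX1, SLC40A1, TFRC, IREB2, ACO1, SLC11A1, SLC11A2 and NCOA4, taken from the deposited count table by gene symbol. All 10 of 10 had a row among the 23710 genes of the table, and all 10 were among the 13591 genes with enough reads to be tested. The cells had received mebendazole, a benzimidazole anthelmintic that binds beta tubulin, at 10 uM or only its vehicle DMSO, for 6 h in both groups, and bulk RNA was then sequenced. Each group had 3 libraries, and the labels number them as 3 pairs. Nothing in the labels ties a pair to its own culture, so the p-values cover only how far these samples scatter, and that scatter may be technical.

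Cells take up most iron as transferrin bound to the transferrin receptor, store it inside ferritin shells of heavy and light chains, and release it through ferroportin. Macrophages also recover iron from haem, which haem oxygenase opens to biliverdin, carbon monoxide and ferrous iron. The iron regulatory proteins IRP1 (gene ACO1) and IRP2 (gene IREB2) bind a short RNA stem-loop, the iron-responsive element, when cellular iron is low. Bound in a 5′ UTR the element blocks translation, and bound in the 3′ UTR of the transferrin receptor mRNA it protects the mRNA from decay. Ferritin and haem oxygenase genes are also targets of the transcription factor NRF2 and of its competitor BACH1.

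Iron-responsive elements found in the genes in question are shown because they divide these genes into a translational and a stability class, which RNA counts see differently. They were found in GENCODE 29 protein-coding transcripts, on the sense strand only, as C, then 5 bases, then CAGTGN, then 5 bases that pair with the first 5, where a G-T pair was allowed. Capitals mark the 6 loop bases, and coordinates are of GRCh38, a later build than the one of the count table.

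FTH1, 5′ UTR, chr11:61967575-61967601, minus strand: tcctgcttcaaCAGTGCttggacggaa
FTL, 5′ UTR, chr19:48965336-48965362, plus strand: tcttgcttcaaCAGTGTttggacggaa
SLC40A1, 5′ UTR, chr2:189580662-189580688, minus strand: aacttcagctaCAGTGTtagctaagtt
TFRC site 1, 3′ UTR, chr3:196050980-196051006, minus strand: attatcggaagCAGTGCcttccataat
TFRC site 2, 3′ UTR, chr3:196050576-196050602, minus strand: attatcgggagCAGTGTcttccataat
TFRC site 3, 3′ UTR, chr3:196050511-196050537, minus strand: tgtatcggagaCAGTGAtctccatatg
TFRC site 4, 3′ UTR, chr3:196050464-196050490, minus strand: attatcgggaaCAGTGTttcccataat

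Among all genes with a 5′ UTR in that annotation, 36 of 19028 (0.189%) held such a stem-loop there, and 132 of 19560 (0.675%) held one in a 3′ UTR. A match is a description of the letters, and no binding was measured. Elements that depart from this pattern would be missed, so the sites shown for a gene need not be all it has. The other members had no match to this strict pattern, which says only that these letters are not in their annotated transcripts.

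With mebendazole, both ferritin chains, haem oxygenase 1 and the divalent metal transporter SLC11A2 rose, and ferroportin, the transferrin receptor, IRP1, SLC11A1 and NCOA4 fell. Genes were called with edgeR's quasi-likelihood test at a Benjamini-Hochberg adjusted p under 0.05, with the pair as a term. Of the 10 genes, 4 were called higher, 5 lower and 1 was not called, while 82.3% of all genes tested were called, 40.6% higher and 41.7% lower. The members' share of calls is thus near the background, and their sizes and directions carry the description. At 2-fold or more, 3 rose and 1 fell, against 15.5% and 14.8% of all genes tested. The 3 DMSO and 3 mebendazole libraries did not overlap in any of the 10 genes, as for 82.4% of all genes tested. Levels below are CPM, which bring each library to one common depth after TMM scaling, a scaling that assumes that most genes do not change. Errors of levels are SD over 3 libraries, and the SE of a log2 fold change comes from the fitted model. Per-gene p-values rest mostly on a spread pooled over genes (a prior of 61 degrees of freedom against the gene's own 2).

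**Figure D1:**
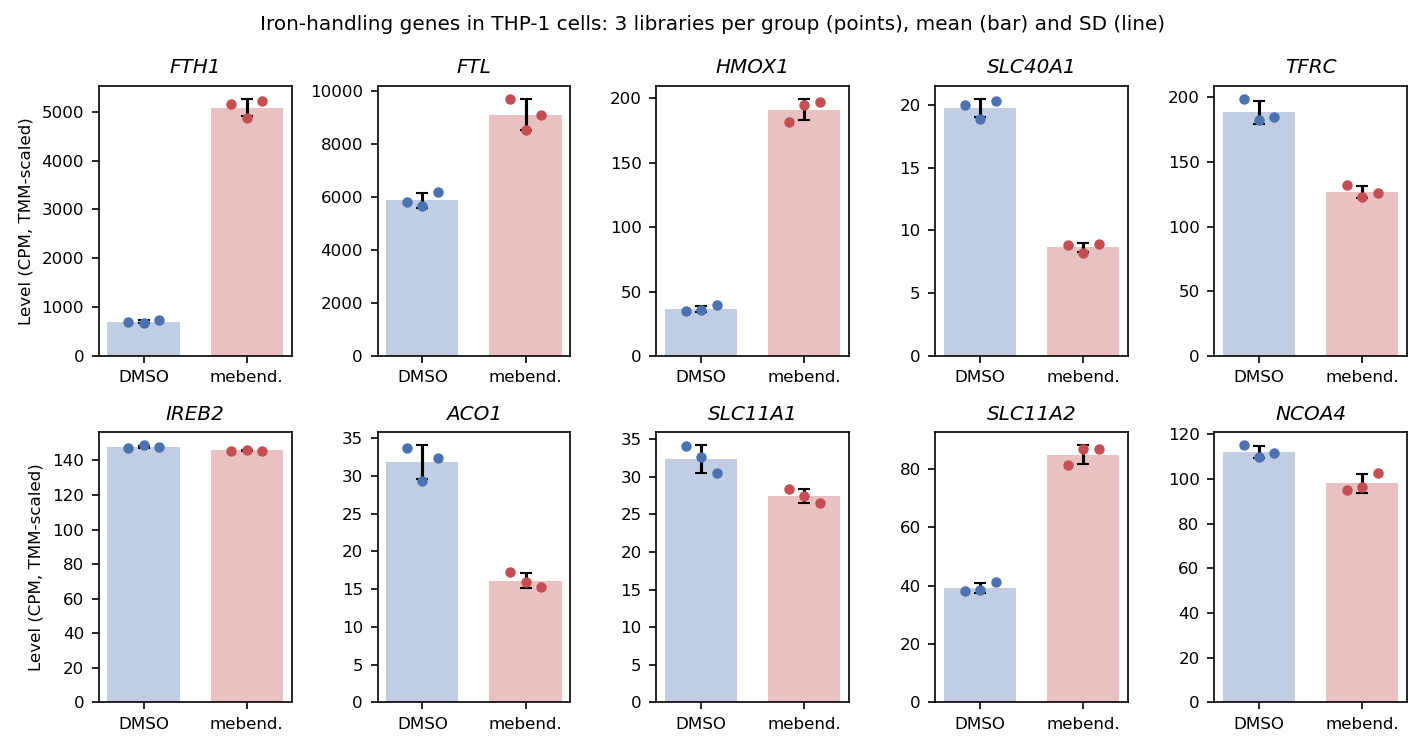
Level of each gene (CPM after TMM scaling, linear axis from 0) in the 3 DMSO and 3 mebendazole libraries, shown as points, with bars for the mean and lines for the SD. FTH1 and HMOX1 stand far above their DMSO level, and IREB2 has nearly the same level in both groups.

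FTH1, the ferritin heavy chain, which oxidises ferrous iron as it enters the shell, had 702, 681 and 729 CPM in the DMSO libraries. It had 5155, 4879 and 5216 CPM in the mebendazole libraries. Every mebendazole library was several times above every DMSO library, and each of the 3 pairs rose by nearly the same amount (2.88, 2.84 and 2.84 on the log2 scale). The log2 fold change was 2.85 (SE 0.03, adjusted p = 3.8e-67 in edgeR), a 7.22-fold rise at the 96.2 percentile of all genes tested. By abundance, FTH1 ranked 132 to 138 among all genes of the DMSO libraries and 8 in each mebendazole library.

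FTL, the light chain, which helps to form the iron core, was already among the most abundant mRNAs, at 5791, 5649.6 and 6177 CPM in DMSO. With mebendazole it had 9700.2, 8513 and 9109.6 CPM, again above every DMSO library. Its rise was much smaller than that of the heavy chain, with a log2 fold change of 0.63 (SE 0.03, adjusted p = 7.5e-31, edgeR), or 1.55-fold. FTH1 and FTL together held 0.715% ± 0.0278 (SD, n = 3) of all counted reads in DMSO and 1.30% ± 0.0566 with mebendazole, shares that need no scaling factor.

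Ferritin genes have processed pseudogenes, and reads of near-identical copies may be split or lost in counting, so single ferritin values carry that uncertainty. One copy in the table had 10 reads or more, FTH1P3, an intronless copy on chromosome 2 (GRCh38, 27392784 to 27393367). Its GENCODE transcript matched that of FTH1 at 530 of 584 aligned bases (90.8%). FTH1P3 rose with its parent, from 27, 17 and 26 reads to 147, 101 and 137 reads (log2 fold change 2.70, SE 0.19, adjusted p = 1.5e-23, edgeR). Per 1000 FTH1 reads there were 2.11 ± 0.417 FTH1P3 reads in DMSO and 1.89 ± 0.264 with mebendazole (SD, n = 3), a difference within the spread between libraries. Whether these reads come from the copy or from FTH1 was not tested.

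NCOA4, the receptor that carries ferritin to the lysosome for breakdown, had 115, 109.8 and 111 CPM in DMSO and 94.8, 96.4 and 103 CPM with mebendazole. The groups lay close together without overlap. Its log2 fold change was -0.20 (SE 0.04, adjusted p = 4.2e-05, edgeR). That was smaller in size than the shift of -0.24 that scaling by library totals gives to the median of all genes tested. The shift goes the same way, and NCOA4 was also called lower with library totals.

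HMOX1, the stress-inducible haem oxygenase, had 35.1, 35.5 and 39.2 CPM in DMSO and 182, 195 and 197 CPM with mebendazole. The lowest mebendazole library was more than 4 times the highest DMSO library. The log2 fold change was 2.38 (SE 0.05, adjusted p = 1.7e-51, edgeR), a 5.22-fold rise at the 94.7 percentile of genes tested. HMOX2, the constitutive haem oxygenase and not a member, had 34.5 ± 2.03 CPM in DMSO and 30.6 ± 1.30 CPM with mebendazole. The log2 fold change of HMOX2 was -0.17 (adjusted p = 0.00997 in edgeR). The call was missed in DESeq2 (adjusted p = 0.192) and lost without pair 3 (adjusted p = 0.125).

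TFRC, the transferrin receptor and main entry route of iron, had 199, 182 and 184 CPM in DMSO and 132, 123 and 126 CPM with mebendazole. All mebendazole libraries were lower, with a log2 fold change of -0.57 (SE 0.04, adjusted p = 1.0e-21, edgeR). SLC11A2 (DMT1), which moves ferrous iron across the endosomal membrane after uptake by the receptor, went the other way. It had 38.1, 38.6 and 41.1 CPM in DMSO and 81.1, 86.7 and 86.6 CPM with mebendazole, a log2 fold change of 1.11 (SE 0.05, adjusted p = 5.2e-30, edgeR). The 3′ end of SLC11A2 mRNA differs between isoforms with and without an iron-responsive element, and counts per gene do not separate them.

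SLC11A1 (NRAMP1), which pumps divalent metals out of the phagosome of macrophages, had 34.0, 32.5 and 30.4 CPM in DMSO and 28.3, 27.5 and 26.5 CPM with mebendazole. Its libraries did not overlap, but the difference was small, with a log2 fold change of -0.24 (SE 0.07, adjusted p = 7.7e-04, edgeR). It missed the threshold in DESeq2 (adjusted p = 0.0691). SLC40A1, ferroportin, the exporter of iron from cells, had 19.98, 18.9 and 20.3 CPM in DMSO and 8.86, 8.21 and 8.89 CPM with mebendazole. That was a 2.28-fold fall (log2 fold change -1.19, SE 0.10, adjusted p = 2.3e-18, edgeR), the largest among the 10 genes.

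ACO1, whose protein is a cytosolic aconitase when it holds an iron-sulphur cluster and IRP1 when it does not, had 33.7, 29.4 and 32.3 CPM in DMSO. It had 17.2, 15.9 and 15.3 CPM with mebendazole, a clear gap with no overlap (log2 fold change -0.98, SE 0.08, adjusted p = 2.5e-19, edgeR). IREB2, which encodes IRP2, a protein controlled by its degradation, had 147, 149 and 147 CPM in DMSO and 145, 146 and 146 CPM with mebendazole. The groups did not overlap, with libraries of each within 2 CPM of each other, but the difference was not called (log2 fold change -0.02, 95% interval -0.10 to 0.06, adjusted p = 0.616, edgeR). Scaled by library totals, IREB2 was called lower (log2 fold change -0.27, adjusted p = 1.1e-08), so its call depends on the scaling.

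**Figure D2:**
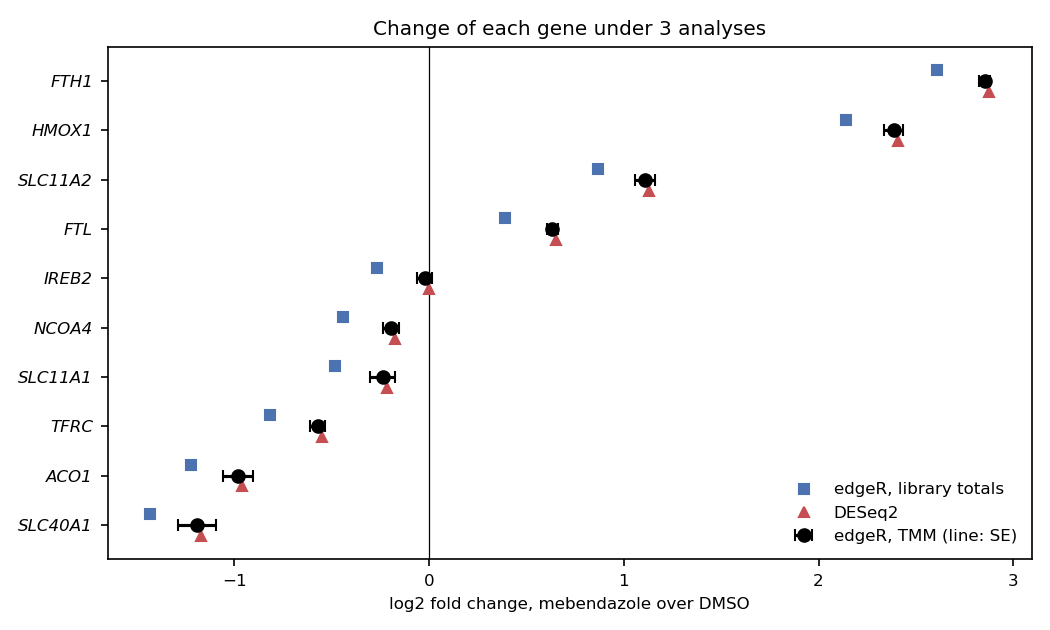
The log2 fold change of each gene, mebendazole over DMSO, from edgeR with TMM scaling (black circles, lines are SE), edgeR with library totals (blue squares) and DESeq2 (red triangles). Library totals move every gene to the left by about the same amount, so FTH1, HMOX1, SLC11A2 and FTL stay above 0 and IREB2 moves from -0.02 to -0.27.

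Ratios between genes inside a library do not depend on how libraries are scaled. FTH1 reads per FTL read were 0.121, 0.120 and 0.118 in DMSO and 0.531, 0.573 and 0.573 with mebendazole, so the ratio of heavy to light chain reads rose 4.66-fold. TFRC reads per FTH1 read went from 0.268 ± 0.0151 to 0.0249 ± 0.000757, a 10.7-fold lower ratio. The ratio of the mRNAs of both iron regulatory proteins, ACO1 to IREB2, went from 0.215 ± 0.0160 to 0.111 ± 0.00695. SLC11A1 to SLC11A2 went from 0.826 ± 0.0788 to 0.324 ± 0.0225, and HMOX1 to HMOX2 from 1.06 ± 0.0564 to 6.28 ± 0.510 (each SD, n = 3). In all 5 ratios the groups did not overlap, while for single genes this held in 82.4% of those tested. Both genes of each ratio had unlike changes above. The ratios restate those changes without scaling and are not separate evidence. The exact two-sided permutation test gave p = 0.1 for each, the smallest p that 3 libraries against 3 allow, and 0.1 after adjustment over the 5 ratios.

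**Figure D3:**
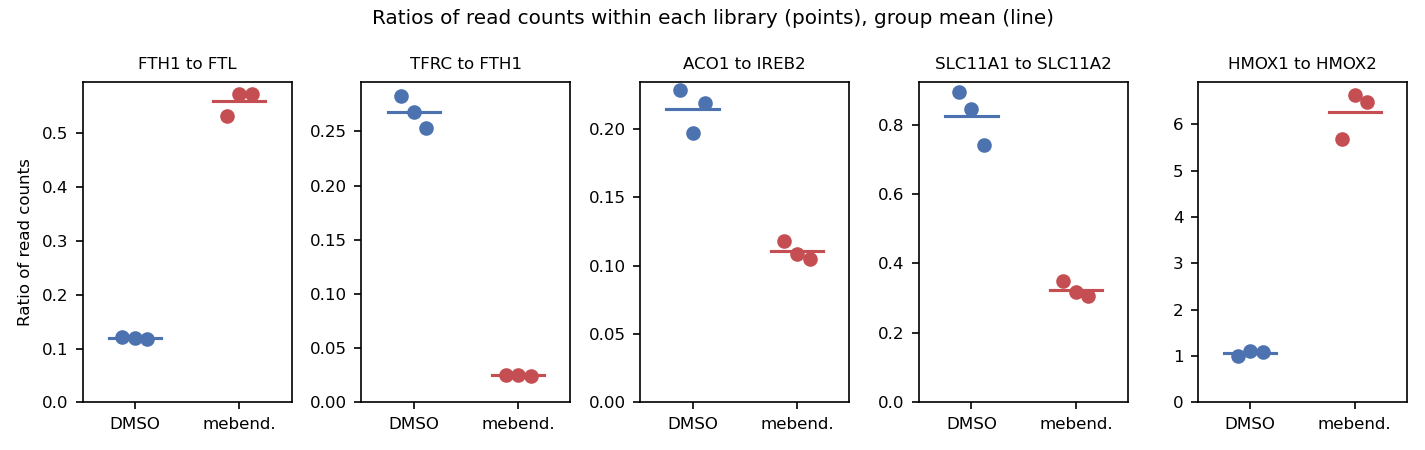
Ratios of read counts between pairs of genes in each library (points; linear axis from 0), with lines for the group means. In all 5 panels the 3 mebendazole libraries lie apart from the 3 DMSO libraries, most widely for TFRC to FTH1 (0.268 against 0.0249).

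Levels of different genes were compared as CPM per kilobase of merged exons in GENCODE 29, an approximation, since no source used here gives the gene models behind the counts. In DMSO the order on this per-kilobase scale was FTL (6688 ± 311), FTH1 (435 ± 15), TFRC (35.4 ± 1.70), NCOA4 (27.5 ± 0.644), HMOX1 (20.1 ± 1.24) and IREB2 (15.6 ± 0.0745). SLC11A1 (8.40 ± 0.469), SLC40A1 (5.74 ± 0.215), SLC11A2 (5.39 ± 0.227) and ACO1 (4.21 ± 0.295) followed, and the intervals of 1 SD of SLC40A1 and SLC11A2 overlapped. With mebendazole, FTL stayed first at 10370.0 ± 676 and FTH1 second at 3144 ± 111, and HMOX1 moved to the third place at 105 ± 4.55 CPM per kilobase. NCOA4 (24.0 ± 1.00) and TFRC (23.8 ± 0.873) then lay within each other's spread. IREB2 (15.3 ± 0.0439), SLC11A2 (11.7 ± 0.439), SLC11A1 (7.12 ± 0.236), SLC40A1 (2.51 ± 0.112) and ACO1 (2.13 ± 0.132) closed the order. SLC11A2 had thus passed SLC11A1, and it lay above SLC40A1, from which it was not separated in DMSO.

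The other genes of iron and haem metabolism were taken from 11 lists by function, 95 genes without the members, of which 85 were tested. Of these, 42 were higher and 33 lower, where 40.6% of all genes tested were higher and 41.7% lower. Their median log2 fold change was 0.05 against -0.03 for all genes tested. Scaled by library totals, 27 were higher and 43 lower, with a median of -0.19. Under that scaling the median of all genes tested was -0.27, and 36.4% of their calls were higher.

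Haem synthesis genes were mostly lower. Of 11 tested, 7 were lower and 2 higher, against 41.7% and 40.6% of all genes tested. With library totals, 9 were lower and 2 higher. The median log2 fold change was -0.27, or -0.52 with library totals. For all genes tested these medians were -0.03 and -0.27, and 36.4% of calls with library totals were higher. ALAD, which makes porphobilinogen, went from 96.0 ± 3.08 to 38.7 ± 0.908 CPM (log2 fold change -1.31, adjusted p = 6.1e-34, edgeR). UROS, which closes the porphyrin ring, went from 30.0 ± 1.46 to 9.97 ± 0.807 CPM (-1.59). FECH, the ferrochelatase that inserts iron into protoporphyrin, went from 37.8 ± 0.854 to 14.6 ± 1.41 CPM (-1.37), and PPOX, the oxidase before it, fell by 1.503 on the log2 scale. UROD, which acts after UROS, was lower by little (-0.23), and CPOX, which follows it, was higher (0.61). ALAS1, the first and rate-limiting enzyme outside red cells, was not called at 80.2 ± 1.86 and 83.3 ± 2.25 CPM (log2 fold change 0.05, adjusted p = 0.27), and was called lower with library totals (-0.19, adjusted p = 0.000169).

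**Figure D4:**
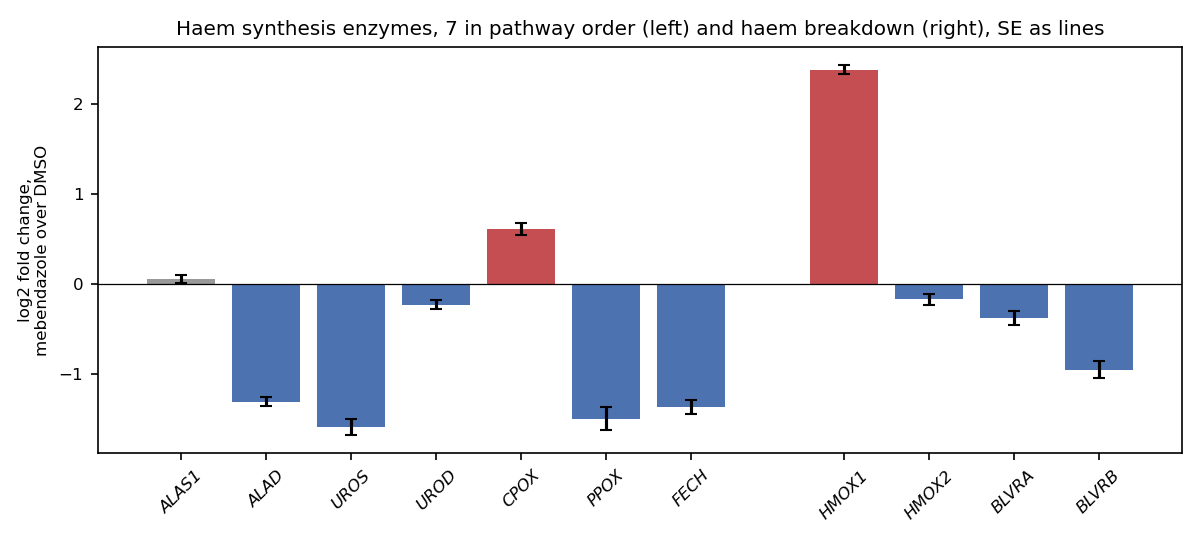
The log2 fold change, mebendazole over DMSO, of 7 haem synthesis enzymes in the order in which they act (left) and of haem breakdown enzymes (right), with SE as lines; red bars were called higher, blue bars lower and the grey bar was not called. Of the genes drawn, UROS has the largest fall (-1.59) and HMOX1 the largest rise (2.38).

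In haem breakdown and transport, HMOX1 moved against most of its list. Without it, 7 of 10 tested genes were lower and 2 higher, against 41.7% and 40.6% of all genes tested. The median log2 fold change of these 10 was -0.42. BLVRB, a biliverdin reductase, went from 23.2 ± 1.79 to 11.9 ± 1.59 CPM (-0.95), and BLVRA, the main adult form, was lower too (-0.38). SLC48A1, which carries haem out of the lysosome, was at -0.80 and FLVCR2, a carrier of the FLVCR family, at -1.17. POR, the reductase that feeds electrons to haem oxygenase, rose from 67.9 ± 1.71 to 111 ± 0.842 CPM (0.71).

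Iron uptake genes split in both directions, as all genes tested did. Of 11 tested beside the members, 6 were higher and 5 lower, against 40.6% and 41.7% of all genes tested. STEAP3, the endosomal ferrireductase that prepares iron for SLC11A2, had 54.0 ± 2.07 CPM in DMSO and 4.52 ± 0.291 CPM with mebendazole, a fall with adjusted p = 1.2e-45 in edgeR (log2 fold change -3.58, SE 0.11). TFR2, the second transferrin receptor, fell from 7.37 ± 0.279 to 1.83 ± 0.137 CPM (-2.01). The metal transporters of the ZIP family went opposite ways, SLC39A8 from 100.2 ± 2.21 to 441 ± 22.6 CPM (2.14) and SLC39A14 from 131 ± 5.91 to 67.4 ± 1.57 CPM (-0.96). MFI2 (now MELTF), the iron-binding melanotransferrin, rose from 22.1 ± 0.109 to 198 ± 3.98 CPM (3.17, adjusted p = 8.3e-57). MCOLN1, an ion channel that lets iron out of late endosomes and lysosomes, was at 1.00.

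Among storage genes, the cytosolic iron chaperones PCBP1 and PCBP2, which deliver iron to ferritin, were higher (0.39 and 0.45). HERC2, a ubiquitin ligase reported to act on NCOA4, was not called (-0.06, adjusted p = 0.173, edgeR). HERC2 was called lower with library totals (-0.31) and with the CPM minimum of 10 (-0.097, adjusted p = 0.0374, edgeR). Of the export genes, HAMP, the hormone hepcidin that removes ferroportin, had 0 reads in every library and was not detectable with this number of reads. Of the ferroxidases that work with ferroportin, CP had 1 read in each group and HEPH was not called (36 and 20 reads). HEPHL1 rose from 5 to 89 reads (log2 fold change 4.28, SE 0.69, adjusted p = 1.1e-13, edgeR).

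Of 5 partners of the iron regulatory proteins, 2 were called higher and 2 lower, against 40.6% and 41.7% of all genes tested. RBX1, the ring subunit of the ligase, was not called (-0.12, adjusted p = 0.0508). RBX1 was called lower with library totals (-0.37, adjusted p = 1.17e-07), without pair 2 (0.0222), with no filter (0.0321) and with the CPM minimum of 10 (0.0127). With library totals all 7 genes of the list, ACO1 and IREB2 included, were called lower, with a list median of -0.37. Under that scaling the median of all genes tested also moved down, to -0.27, and only 36.4% of their calls were higher. FBXL5, the iron-sensing subunit that marks IRP2 for degradation, was at 0.12 and its ligase partner SKP1 at 0.11, both called higher. With library totals both turned, to -0.12 for FBXL5 and -0.14 for SKP1, and were called lower. CUL1 was at -0.13 and was not called by DESeq2 (adjusted p = 0.142). FBXL5 also lost its call without pair 1 (adjusted p = 0.0551) or pair 3 (0.0661), SKP1 without pair 3 (0.0599), and CUL1 without pair 2 (0.0527) or pair 3 (0.0573). FAM96A (now CIAO2A), a cluster assembly factor that matures IRP1, fell from 59.8 ± 1.33 to 32.3 ± 1.71 CPM (-0.89, adjusted p = 8.2e-23), in the same direction as ACO1.

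The mRNAs listed as having an iron-responsive element did not share a direction in either class. The list comes from general knowledge, and the strict pattern above found no site in EPAS1, SDHD, SLC11A2 or CDC42BPA. In the 5′ class, 3 tested genes were higher (FTH1, FTL and EPAS1) and 3 lower, SLC40A1 and SDHD among them. Of all genes tested, 40.6% were higher and 41.7% lower. EPAS1, which encodes HIF-2 alpha, rose from 29.2 ± 2.55 to 305 ± 10.6 CPM (log2 fold change 3.38, adjusted p = 1.1e-60, edgeR), and SDHD was at -0.61. In the 3′ class, TFRC was lower and SLC11A2 higher, and CDC14A was at 0.27. The call of CDC14A was lost with library totals (0.03, adjusted p = 0.763), with DESeq2 (adjusted p = 0.0682) and without pair 3 (0.12, adjusted p = 0.296). CDC42BPA (37 and 9 reads) and ALAS2 (1 and 4 reads), the latter the erythroid enzyme, were not tested.

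Regulators of HMOX1 and ferritin genes, which are transcription factors except for KEAP1, the ubiquitin ligase adaptor that holds NRF2 in check, were higher throughout. All 12 tested were called higher, against 40.6% of all genes tested, with a median log2 fold change of 1.07. With library totals 10 were called higher, none lower, with a median of 0.83. All genes tested then had a median of -0.27, and 36.4% of their calls were higher. NFE2L2, which encodes NRF2, rose from 136 ± 5.69 to 448 ± 20.4 CPM (1.72, SE 0.04, adjusted p = 8.3e-49, edgeR). BACH1, the haem-sensing repressor of HMOX1, rose from 56.7 ± 2.63 to 161 ± 8.06 CPM (1.505, SE 0.04), so activator and repressor mRNAs were both higher. Of the small MAF partners of both factors, MAFF rose from 2.19 ± 0.0765 to 52.5 ± 1.82 CPM (4.58), and MAFK and MAFG were at 1.14 and 0.90. HIF1A, the hypoxia factor, rose from 53.7 ± 1.75 to 338 ± 12.5 CPM (2.65). KEAP1 and ARNT, at 0.33 and 0.31, were the 2 that lost their call with library totals. The list was chosen with earlier results of these data known, and RNA levels say nothing of the activity of these proteins.

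**Figure D5:**
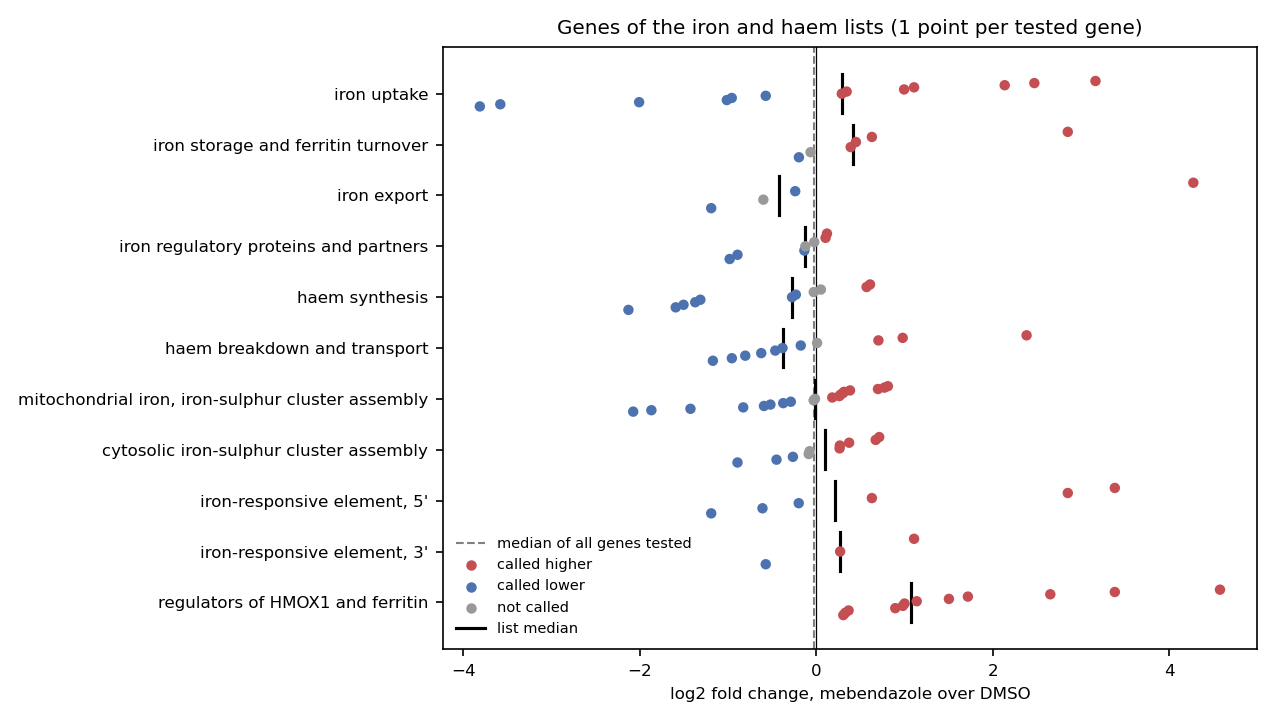
The log2 fold change, mebendazole over DMSO, of every tested gene of the 11 iron and haem lists (1 point per gene, members included), coloured by the edgeR call, with black ticks for list medians and a dashed line at the median of all genes tested (-0.03). The 12 regulators of HMOX1 and ferritin, KEAP1 included, all lie above 0, and the haem synthesis list has its median at -0.27.

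The libraries held 13420558 to 15727667 counted reads, in ranges that overlapped between the groups. Of 12 monocyte and myeloid markers all were detected, CSF1R at 453 ± 22.5 CPM and SPI1 at 323 ± 13.6 CPM in DMSO, which fits the label of the line. Their summed level was 2228 to 2344 CPM in DMSO and 1985 to 2054 CPM with mebendazole. Of these markers, 3 were higher and 8 lower, against 40.6% and 41.7% of all genes tested. Their median log2 fold change was -0.66, with a range from -3.88 (CYBB) to 0.98 (SPI1), so the sum hides large changes of single markers. Of 11 erythroid markers, 5 had 0 reads in all libraries, HBA1, HBG1, HBG2 and AHSP among them, and HBB had 0 and 5 reads in DMSO and mebendazole. The summed erythroid level, nearly all of it EPOR, was 5.72 to 6.37 CPM in DMSO and 4.61 to 4.88 CPM with mebendazole. Summed lymphocyte markers were 14.99 to 16.7 and 28.6 to 29.2 CPM, mostly NKG7 (14.1 ± 0.913 and 24.95 ± 0.384). GNLY rose from 20 to 104 reads (log2 fold change 2.61, adjusted p = 5.5e-11, edgeR). The T cell genes CD3D (5 reads in DMSO), CD3E (1) and CD3G (2) were at 0 in all mebendazole libraries. Summed epithelial, stromal and endothelial markers were 91.5 to 102.5 and 127 to 149 CPM, mostly PECAM1 (94.2 ± 5.92 and 135 ± 11.3), which monocytes also express, with COL1A2 at 0 in all libraries. The part of these marker differences in the changes of the iron genes was not tested. In bulk RNA, fewer cells with a transcript and less of it per cell cannot be told apart.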

How the data were processed

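Bulk RNA of 6 THP-1 samples was measured with Illumina TruSeq RNA v2 libraries, per the labels' protocols. The deposited table holds raw counts of reads per gene symbol, 1 column per sample. The submitters' processing notes name STAR, bedtools, HTSeq, DESeq2 and hg19, without roles. No source used here gives the annotation or strand setting, and the kit does not mark strand, so overlapping genes cannot be told apart.

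The test was run with edgeR 4.0.16 under R 4.3.3: filterByExpr on the group (13591 of 23710 genes, 99.92% of reads), TMM, and a two-sided quasi-likelihood F test with the sample pair as a term, because the labels state 3 pairs; p-values were adjusted over all genes tested. DESeq2 1.42.0 was an alternative. The SE is from the fit's working weights, and intervals are at 95% with 63 degrees of freedom. The procedure was tested on simulated data. Replicates differed by more than sampling noise (chi-square over degrees of freedom 1.45 to 3.27), so none was counted as a repeat deposit.

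The members and the lists were chosen with earlier results of these data known. The naming rule took all members, of each iron list the 4 non-members with the smallest p, of each marker list the 2 most abundant genes, and ferritin copies with 10 reads or more. Other list genes were named after their values were seen. A few list members enter the counts of their lists but are not reported here by name.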

Additional observations from a re-analysis of the deposited data

How the results depend on the processing

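The 10 alternatives were library totals, RLE factors, DESeq2, no replicate block, no filter, a mean CPM of 10 or more, a test against a 1.5-fold change, and leaving out each pair. FTH1, FTL, HMOX1, SLC11A2, SLC40A1 and ACO1 kept direction and call in all of them. Against a 1.5-fold change, which asks for more, TFRC (-0.57, adjusted p = 0.683), SLC11A1 (-0.24) and NCOA4 (-0.20) lost their call, so 2 members were lower in place of 5, 20 and 18 other iron genes were higher and lower in place of 42 and 33, and 5774 of all genes were called in place of 11192. With DESeq2, SLC11A1 (-0.22) was not called. With library totals IREB2 was called (-0.27), 27 other iron genes were higher and their median was -0.19, while the median of all genes shifted by -0.24 and 36.4% of calls were higher in place of 49.3%. With a mean CPM of 10 or more that iron median was 0.19, as fewer genes were tested (74 of 85). Under the shift from library totals, FBXL5 (-0.12), SKP1 (-0.14), ALAS1 (-0.19) and PGRMC1 (-0.23) turned negative and were called lower. ISCA1 (-0.062) turned negative with library totals and lost its call. Other changes of sign were not called: IREB2 with RLE factors (1.8e-05); PGRMC1 with no filter (-0.005) or the CPM minimum (-0.022); HSPA9 with RLE factors (0.0084) or DESeq2 (0.0083); without 1 pair, SLC25A38 (-0.065 to 0.00087), PGRMC1 (-0.01 to 0.048), HSCB (-0.088 to 0.029), HSPA9 (-0.018 to 0.0047) and MMS19 (-0.124 to 0.0003). The cause of these was not tested. Without 1 pair, 4 members were higher and 5 lower each time, and 38 to 42 and 30 to 33 other iron genes were. With no replicate block, 11118 genes were called, the log2 fold change of FTL was 0.63, and no member changed its call. Within a pair, the deviations of both samples from their group means had correlations of -0.000997, 0.0614 and 0.0155, so the numbers show no pairing in the data. The 5 ratios kept their direction without any 1 pair and with 1 count added.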

Other observations

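Genes that build iron-sulphur clusters, which ACO1 needs to act as an aconitase, went both ways. In the mitochondrial list 9 of 19 tested genes were higher and 8 lower, near the 40.6% and 41.7% of all genes tested. The median log2 fold change was -0.01, and scaling by library totals gave 3 higher and 9 lower (median -0.26). All genes tested then had a median of -0.27, and 36.4% of their calls were higher. BOLA3, which acts late in cluster transfer, fell from 28.6 ± 1.39 to 10.7 ± 1.23 CPM (-1.42, SE 0.09, adjusted p = 2e-24, edgeR). GLRX5, a carrier of clusters, was at -0.83, and FDXR, the reductase that supplies the electrons, was at -2.07. The mitochondrial iron importers SLC25A37 and SLC25A28 were at 0.28 and 0.38, and both lost their call with library totals (adjusted p = 0.571 and 0.0869). IBA57 (0.70) and LYRM4 (0.81) were higher. ISCA1, NFU1 and FDX1L were called with all pairs but not without pair 1 (ISCA1, adjusted p = 0.208; NFU1, adjusted p = 0.0826) or pair 3 (FDX1L, adjusted p = 0.118).

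In the cytosolic list 5 of 10 tested genes were higher and 3 lower (median 0.10), against 40.6% and 41.7% of all genes tested. Scaling by library totals gave 3 higher and 5 lower (median -0.15), where the median of all genes tested was -0.27 and 36.4% of calls were higher. The paralogues FAM96A (-0.89) and FAM96B (now CIAO2B, 0.71) moved in opposite directions. FAM96B rose from 47.3 ± 0.689 to 77.6 ± 2.68 CPM (adjusted p = 9.1e-21, edgeR). GLRX3, a cytosolic carrier of clusters, rose from 31.7 ± 2.30 to 50.6 ± 3.92 CPM (0.68), and NDOR1, a reductase of the same route, was at 0.37.

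Among genes of the STEAP family, STEAP1 and STEAP4, both low, moved apart. STEAP1 had 30 reads in DMSO and 141 with mebendazole (log2 fold change 2.47, SE 0.30, adjusted p = 3.3e-13, edgeR). STEAP4 had 71 and 4 reads (-3.81, SE 0.80, adjusted p = 1.4e-09).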
